A study of Mus musculus with 4 samples.

Results

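The genes described here are the enzymes and regulators of cholesterol and fatty acid synthesis that sterol regulatory element-binding proteins (SREBPs) control. They were taken as a list of 36 symbols, 21 of a cholesterol arm and 15 of a fatty acid arm, and measured in whole pancreas. The mice were 8 weeks old and had been given cerulein until tissue was taken on day 5. A gene counted as measured where the array annotation gave a row exactly that 1 symbol, and the brightest row on average was kept where a gene had several. This left 33 members, 19 of the cholesterol arm and 14 of the fatty acid arm, out of 22180 genes. No such row was found for Acat2, Idi1 and Scd2, and the only rows naming Idi1 and Scd2 carried several symbols. Both groups received the same treatment. Cerulein, a peptide that acts like cholecystokinin and injures acinar cells by driving secretion too hard, was injected intraperitoneally at 100 µg/kg, 6 times per day on alternate days. One group was wild type (n = 2 arrays) and the other was null for Ifrd1 (n = 2 arrays), a gene for a transcriptional co-regulator. The strain, the sex and the part of Ifrd1 that was deleted are not given in the sources used here, and untreated pancreas was not analysed here.

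SREBPs are made as precursors held in the endoplasmic reticulum by the sterol-sensing escort Scap and its anchors Insig1 and Insig2. When membrane sterol runs low, Scap carries the precursor to the Golgi, where proteases release the part that enters the nucleus. Srebf2 encodes the form best known for driving cholesterol synthesis and Srebf1 the form best known for fatty acid synthesis, which also responds to insulin and to liver X receptors. In the pancreas, acinar cells need membrane lipid for their large endoplasmic reticulum and secretory granules, while the fat cells between the lobules are strongly lipogenic.

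Levels are the authors' deposited values, read as log2, and a difference of 1 is 2-fold on that reading. The level of a gene is compared only between arrays, never with another gene. Ifrd1 itself was at 9.04 and 9.07 in wild type and at 6.99 and 7.09 in the null, which matches the labels (difference -2.02 ± 0.11, SE, limma adjusted p = 0.138). Sex-linked genes also separated the groups: Xist was at 2.56 and 3.54 in wild type and at 10.2 and 9.58 in the null, and Uty at 6.41 and 6.40 against 2.25 and 2.36. Genotype and the sex read from these genes therefore cannot be told apart in any difference below. The labels call the arrays of a group biological replicates. A bulk array cannot tell fewer cells of a type from less RNA per cell. Of the 33 members, 31 were above the median gene on all 4 arrays. Hsd17b7 was below it on all 4 arrays and Stard4 on 1, so signal above background is not shown for Hsd17b7. Exactly equal values on 2 or more arrays occurred in 14.1% of all genes and in 5 members, all of the cholesterol arm (Mvk, Pmvk, Fdps, Cyp51 and Msmo1).

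Neither arm separated the genotypes beyond the replicate spread in the test across all genes. Of 33 members, 0 passed a limma adjusted p of 0.05 over all genes, where 0.00451% of genes passed (1 gene, Uty). At an unadjusted p under 0.05 there was 1 member, Srebf1, lower in the null, where 3.63% of all genes were lower and 3.27% higher at that level. The median difference of the cholesterol arm was -0.08 and that of the fatty acid arm -0.15, against -0.01 over all genes and -0.07 over the 11090 genes above the median level. In the fatty acid arm 12 of 14 members were lower in the null, and in the cholesterol arm 12 of 19, which left 2 and 7 higher, where 47.2% of all genes were higher. The share lower was 52.6% of all genes and 67.3% of genes above the median level. With quantile normalization applied again the arm medians shrank to -0.015 and -0.070, and with cyclic loess to -0.010 and -0.068. Under the former 22 of 33 members were lower instead of 24, and the share among genes above the median level went to 50.6%. The null arrays were further apart than the wild-type arrays in 11 of 19 cholesterol members and 11 of 14 fatty acid members, where 55.4% of all genes and 62.1% of genes above the median level were. The arms differed in the direction of that gap: 14 of 19 cholesterol members were lower on Ifrd1 null 1 than on Ifrd1 null 2 (50% of all genes), and 9 of 14 fatty acid members were higher (45.9% of all genes).

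**Figure D1:**
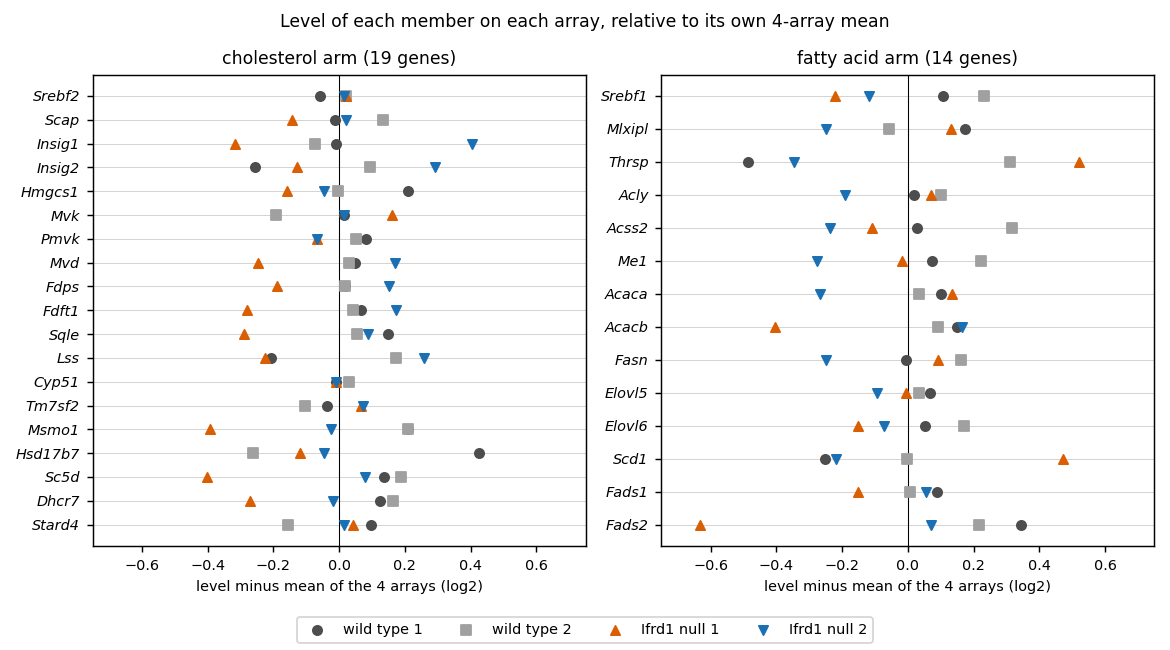
Level of each measured member on each of the 4 arrays, as the log2 value minus the gene's own mean over the arrays, with the cholesterol arm on the left and the fatty acid arm on the right. In most cholesterol members Ifrd1 null 1 (upward triangles) sits lowest, while in Mlxipl, Acly, Acss2, Me1, Acaca, Fasn and Elovl5 it is Ifrd1 null 2 (downward triangles).

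Promoter sequences were read for short motifs that members may share beyond their pathway. RefSeq windows of 300 bases (build GRCm38.p6, from 250 bases before to 50 after a start site) were at hand for 27 of the 33 measured members, in 37 windows. They were searched on both strands for the sterol element TCACNCCAC, the core that SREBPs bind, and for boxes of their partner factors: CCAAT of NF-Y and GGGCGG of Sp1. The E-box CACGTG, which carbohydrate-responsive factors use, was searched too. None of these motifs contains another, although neighbouring matches can overlap. CCAAT was found in 14 of 15 cholesterol members and 9 of 12 fatty acid members, against 41.1% of 27025 genes. Counted per window, it was in 14 of 21 and 10 of 16, against 37.4% of all windows. GGGCGG was in 14 of 15 and 6 of 12, against 38.2% of genes, and CACGTG in 5 of 15 and 2 of 12, against 8.09%. The exact sterol element was in only 1 member of each arm, Hmgcs1 and Mlxipl, against 1.44% of genes. For Mlxipl it lay in the window that begins at chr5:135106641 and not in the one that begins at chr5:135089640. These shares are descriptions of letters, promoters of like base composition were not set apart, and a window without a match lacks only these letters. The promoters of 4 members are shown in full, with every TCACNCCAC and every CCAAT (or its reverse complement ATTGG) in capitals. Hmgcs1 is shown as the cholesterol member with the sterol element, Msmo1 as the cholesterol member with the largest genotype difference, Insig1 as the one with the widest gap between the null arrays, and Fasn for the fatty acid arm.
Hmgcs1 promoter (chr13:119690101-119690400, plus strand): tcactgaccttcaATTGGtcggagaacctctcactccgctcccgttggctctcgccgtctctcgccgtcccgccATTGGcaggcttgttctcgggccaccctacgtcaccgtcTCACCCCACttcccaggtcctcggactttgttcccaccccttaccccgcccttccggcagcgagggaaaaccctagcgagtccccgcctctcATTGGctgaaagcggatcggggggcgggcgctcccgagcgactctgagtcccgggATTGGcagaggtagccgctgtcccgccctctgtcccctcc
Msmo1 promoter (chr8:64733529-64733828, minus strand): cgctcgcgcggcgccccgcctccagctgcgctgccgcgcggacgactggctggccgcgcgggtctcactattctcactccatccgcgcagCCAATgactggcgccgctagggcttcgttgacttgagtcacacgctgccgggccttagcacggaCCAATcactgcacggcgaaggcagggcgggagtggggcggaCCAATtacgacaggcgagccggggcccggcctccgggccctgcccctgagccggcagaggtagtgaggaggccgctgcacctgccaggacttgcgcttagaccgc
Insig1 promoter (chr5:28071162-28071461, plus strand): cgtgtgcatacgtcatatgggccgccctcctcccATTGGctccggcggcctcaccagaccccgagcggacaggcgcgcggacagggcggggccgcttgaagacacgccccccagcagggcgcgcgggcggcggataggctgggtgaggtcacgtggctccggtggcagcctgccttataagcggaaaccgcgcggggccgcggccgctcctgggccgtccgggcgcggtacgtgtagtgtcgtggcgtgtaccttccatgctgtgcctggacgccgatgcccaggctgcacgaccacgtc
Fasn promoter (chr11:120824498-120824797, minus strand): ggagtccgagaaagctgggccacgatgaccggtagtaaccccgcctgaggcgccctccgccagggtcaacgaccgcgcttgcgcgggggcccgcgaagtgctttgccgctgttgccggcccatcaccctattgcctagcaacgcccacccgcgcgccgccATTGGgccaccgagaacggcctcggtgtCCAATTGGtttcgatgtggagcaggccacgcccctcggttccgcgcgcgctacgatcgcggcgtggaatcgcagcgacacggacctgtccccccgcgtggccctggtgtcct
Hmgcs1 carries 4 NF-Y boxes and the sterol element at -137 to -129 from the start site, and Msmo1 carries 3 NF-Y boxes. Fasn has 3 as well, a pair of which overlap in a palindrome, and Insig1 has 1. The 4 promoters shown thus share the NF-Y box. Over the arrays, Hmgcs1 and Msmo1 had Ifrd1 null 1 lowest and Ifrd1 null 2 next, while Insig1 and Fasn each took another order. No CCAAT was found in the windows of Scap, Acaca, Elovl6 and Fads2.

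The regulators of the cholesterol arm did not differ by genotype beyond the array spread. Srebf2, the transcription factor itself, was at 6.82 and 6.90 in wild type and at 6.89 and 6.89 in the null (difference 0.04 ± 0.10, SE). Its 4 values lay within the spread of the wild-type pair. Scap, the escort protein, was at 7.56 and 7.70 in wild type and at 7.43 and 7.59 in the null (-0.12 ± 0.12). These groups overlapped, and with the mean over its 2 rows the difference was 0.05.

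Insig1, which retains the precursor and is itself an SREBP target, showed the widest gap between the null arrays in this arm. It was at 8.31 and 8.24 in wild type, at 8.00 in Ifrd1 null 1 and at 8.72 in Ifrd1 null 2. The null arrays thus lay on either side of a tight wild-type pair, 0.72 apart (1.65-fold), and the genotype difference was 0.09 ± 0.26 (SE, limma adjusted p = 0.940). Insig2, its less sterol-dependent paralog, was at 5.79 and 6.14 in wild type and at 5.92 and 6.33 in the null (0.16 ± 0.21). Its wild-type arrays differed nearly as much as its null arrays.

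In the mevalonate pathway, which builds isoprenoid units from acetyl-CoA, 4 of 5 measured enzymes were lower in the null and 2 did so without overlap between groups. Groups that did not overlap with the null lower were found in 11 of all 33 members, in 19.7% of all genes and in 29.1% of genes above the median level. Hmgcs1, the cytosolic HMG-CoA synthase, was at 7.14 and 6.93 in wild type and at 6.78 and 6.89 in the null (-0.20 ± 0.13, SE, limma adjusted p = 0.762). The lower wild-type array was only just above the higher null array. Pmvk, phosphomevalonate kinase, was at 5.70 and 5.67 against 5.55 on both null arrays (-0.13 ± 0.10). Mvk, the kinase before it, ran the other way, at 5.22 and 5.02 in wild type and 5.37 and 5.22 in the null (0.18 ± 0.13).

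Mvd and Fdps, which make isopentenyl and farnesyl diphosphate, followed the order of Insig1. Mvd was at 5.77 and 5.75 in wild type, at 5.48 in Ifrd1 null 1 and at 5.90 in Ifrd1 null 2. Fdps was at 5.83 on both wild-type arrays, at 5.62 in Ifrd1 null 1 and at 5.96 in Ifrd1 null 2. In each, the genotype means nearly coincided (-0.08 ± 0.17 and -0.04 ± 0.15, SE) because the null arrays fell on opposite sides of wild type.

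The enzymes from squalene to cholesterol held the largest genotype differences of the arm, with 7 of 9 lower in the null and a median of -0.16. Msmo1, a sterol C4-methyl oxidase, was at 5.92 on both wild-type arrays, at 5.32 in Ifrd1 null 1 and at 5.69 in Ifrd1 null 2, 1.33-fold lower (-0.42 ± 0.16, SE, limma adjusted p = 0.722). Sc5d, a desaturase of the sterol ring, was at 7.07 and 7.12 in wild type and at 6.53 and 7.01 in the null (-0.32 ± 0.19, limma adjusted p = 0.761). Dhcr7, the last reductase of the pathway, was at 5.92 and 5.97 in wild type and at 5.53 and 5.78 in the null (-0.29 ± 0.13, limma adjusted p = 0.729). In all 3 the groups did not overlap, as in 29.1% of genes above the median level, and Ifrd1 null 1 was the lower null array. Without that array the differences were -0.23, -0.08 and -0.16.

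Squalene synthase, Fdft1, was at 7.31 and 7.29 in wild type and at 6.97 and 7.42 in the null (-0.11 ± 0.18, SE). Squalene epoxidase, Sqle, was at 6.20 and 6.10 against 5.76 and 6.14 (-0.20 ± 0.16). In both genes Ifrd1 null 1 was the lowest array, while Ifrd1 null 2 lay above wild type for Fdft1 and between the wild-type arrays for Sqle. Lanosterol synthase, Lss, had split values within each genotype, at 4.82 and 5.20 in wild type and 4.81 and 5.29 in the null. Its genotype difference was 0.03 ± 0.23.

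The other members of this arm had small differences or wide spread. Cyp51, the lanosterol demethylase, was at 5.03 on 3 arrays and at 5.07 on wild type 2. Tm7sf2, a sterol reductase, was the only member of either arm whose groups were separate with the null higher, at 5.33 and 5.26 against 5.43 and 5.44 (0.14 ± 0.10, SE). This pattern was found in 16.1% of all genes and in 978 of the 11090 genes above the median level. Stard4, a cytosolic sterol carrier, differed by 0.06 ± 0.13. For Hsd17b7, a sterol ketoreductase, the wild-type arrays were 0.69 apart (4.45 and 3.76) and the null arrays between them, a difference of -0.16 ± 0.25.

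**Figure D2:**
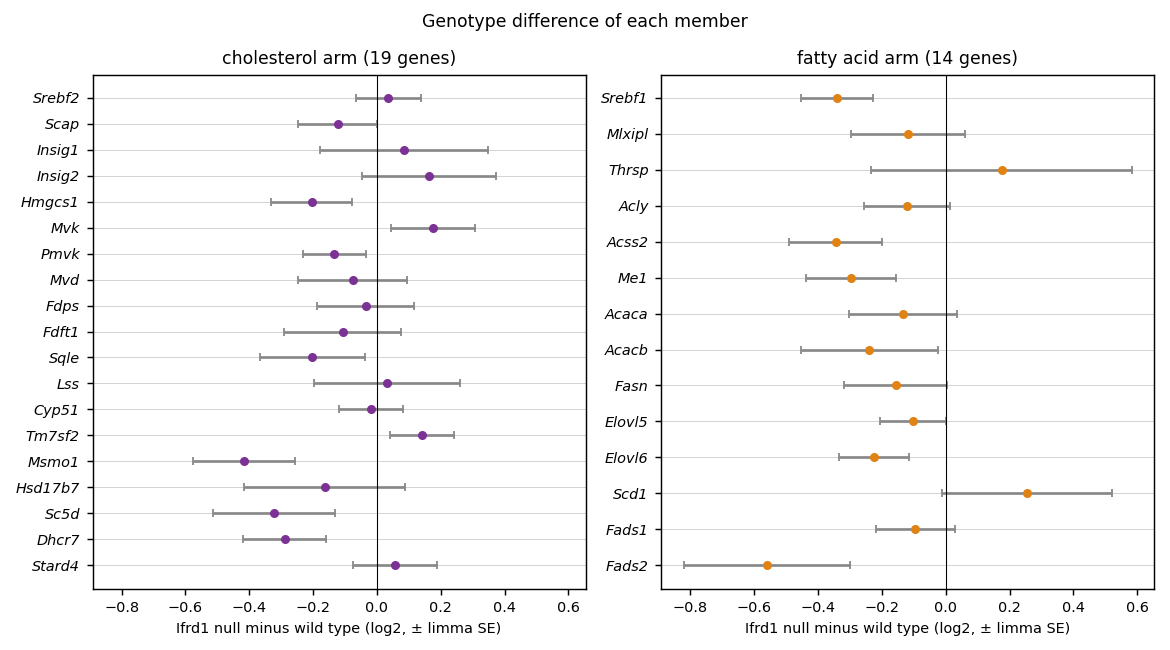
Difference between Ifrd1 null and wild type for each member (log2, points, with limma's moderated SE as bars), cholesterol arm on the left and fatty acid arm on the right. The differences run from -0.56 for Fads2 to 0.25 for Scd1, and 12 of 14 fatty acid members lie left of 0.

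Among the regulators of the fatty acid arm, Srebf1 gave the clearest separation of the genotypes in either arm. It was at 6.27 and 6.40 in wild type and at 5.94 and 6.04 in the null, 1.27-fold lower. The gap between the groups was larger than the spread within either group. The difference was -0.34 ± 0.11 (SE, limma adjusted p = 0.721), and it was between -0.40 and -0.28 with each array left out in turn. Mlxipl, which encodes the carbohydrate-responsive factor ChREBP, was at 5.68 and 5.45 in wild type and at 5.64 and 5.26 in the null (-0.12 ± 0.18). Thrsp, a lipogenic protein abundant in fat and liver, varied most of all members within genotypes: it was at 5.08 and 5.88 in wild type and at 6.09 and 5.22 in the null (0.18 ± 0.41).

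All 6 enzymes that supply acetyl-CoA and NADPH or build palmitate stood lower in the null (median -0.20), as did 67.3% of genes above the median level, and 2 did so without overlap, near the 29.1% of such genes. Acss2, acetyl-CoA synthetase, was at 5.57 and 5.86 in wild type and at 5.43 and 5.30 in the null (-0.34 ± 0.15, SE, limma adjusted p = 0.727). Me1, the NADPH-forming malic enzyme, was at 6.28 and 6.43 against 6.19 and 5.93 (-0.30 ± 0.14, limma adjusted p = 0.734). Both genes were lowest on Ifrd1 null 2, the null array on which most cholesterol members were the higher.

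Fasn, fatty acid synthase, was at 7.84 and 8.00 in wild type, at 7.93 in Ifrd1 null 1 and at 7.59 in Ifrd1 null 2 (-0.16 ± 0.16, SE). Acly, which splits citrate to acetyl-CoA, was at 8.22 and 8.30 in wild type and at 8.27 and 8.01 in the null (-0.12 ± 0.14). Acaca, the acetyl-CoA carboxylase of synthesis, was at 6.17 and 6.10 against 6.20 and 5.80 (-0.14 ± 0.17). In all 3 genes Ifrd1 null 1 lay within 0.10 of the wild-type mean and only Ifrd1 null 2 was lower. Acacb, the carboxylase isoform tied to the control of fatty acid oxidation, had the opposite order, at 6.35 and 6.29 in wild type, 5.79 in Ifrd1 null 1 and 6.36 in Ifrd1 null 2 (-0.24 ± 0.22).

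The elongases and desaturases held both ends of the range. Fads2, the first desaturase of polyunsaturated fatty acid synthesis, was at 9.07 and 8.95 in wild type, at 8.10 in Ifrd1 null 1 and at 8.80 in Ifrd1 null 2. The groups did not overlap, and the difference of -0.56 ± 0.26 (SE, 1.48-fold lower, limma adjusted p = 0.734) came mostly from Ifrd1 null 1, since it was -0.21 without that array and -0.91 without the other null array. Fads1, the next desaturase, was at 7.64 and 7.56 in wild type and at 7.40 and 7.60 in the null (-0.10 ± 0.12).

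Scd1, the desaturase that makes oleate and palmitoleate, was at 8.32 and 8.57 in wild type, at 9.05 in Ifrd1 null 1 and at 8.36 in Ifrd1 null 2. It had the highest genotype difference of all members (0.25 ± 0.27, SE), which rested on Ifrd1 null 1: without it the difference was -0.09. Elovl6, which extends palmitate, was at 6.77 and 6.89 in wild type and at 6.57 and 6.65 in the null (-0.22 ± 0.11, limma adjusted p = 0.740), and its groups did not overlap. For Elovl5, an elongase of polyunsaturated chains, the groups did not overlap either, but the difference was small (-0.10 ± 0.10). Such separate groups with the null lower were found in 29.1% of genes above the median level.

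Set side by side on each array, the arms parted most on Ifrd1 null 2, the only array with the cholesterol arm above the fatty acid arm. Relative to each gene's mean over the arrays, the cholesterol arm had medians of 0.05 and 0.03 in wild type 1 and 2, -0.16 in Ifrd1 null 1 and 0.02 in Ifrd1 null 2. The fatty acid arm had medians of 0.07 and 0.13 in wild type, -0.01 in Ifrd1 null 1 and -0.20 in Ifrd1 null 2. Cholesterol minus fatty acid was thus -0.02 and -0.10 in wild type, -0.15 in Ifrd1 null 1 and 0.23 in Ifrd1 null 2. The genotype means of this gap differed by less than the null arrays did from each other. With 2 arrays against 2, an exact permutation test cannot go below p = 0.333, and none was run.

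Between the null arrays alone, the cholesterol arm was lower on Ifrd1 null 1 by a median of 0.25 (1.19-fold). Of its 19 members 14 were lower there and 3 higher, where 50% of all genes and 46.9% of genes above the median level were lower. The sterol ring enzymes had 8 of 9 lower and 0 higher. In the fatty acid arm the median was 0.19 higher on Ifrd1 null 1, with 9 of 14 members higher, where 45.9% of all genes and 49.9% of genes above the median level were higher. Of the 6 acetyl-CoA, NADPH and palmitate enzymes 5 were higher there, the exception being Acacb. Both wild-type arrays lay between a low Ifrd1 null 1 and a high Ifrd1 null 2 in 5 cholesterol members (Insig1, Mvd, Fdps, Fdft1 and Lss) and in Acacb, an order that 10.2% of all genes took. Acaca was the only member with the reverse order, Ifrd1 null 1 high and Ifrd1 null 2 low, against 8.28% of all genes. These are comparisons of 1 array with 1 array and carry no test. The wild-type pair differed by a median of 0.02 in the cholesterol arm and -0.10 in the fatty acid arm (wild type 1 minus 2).

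**Figure D3:**
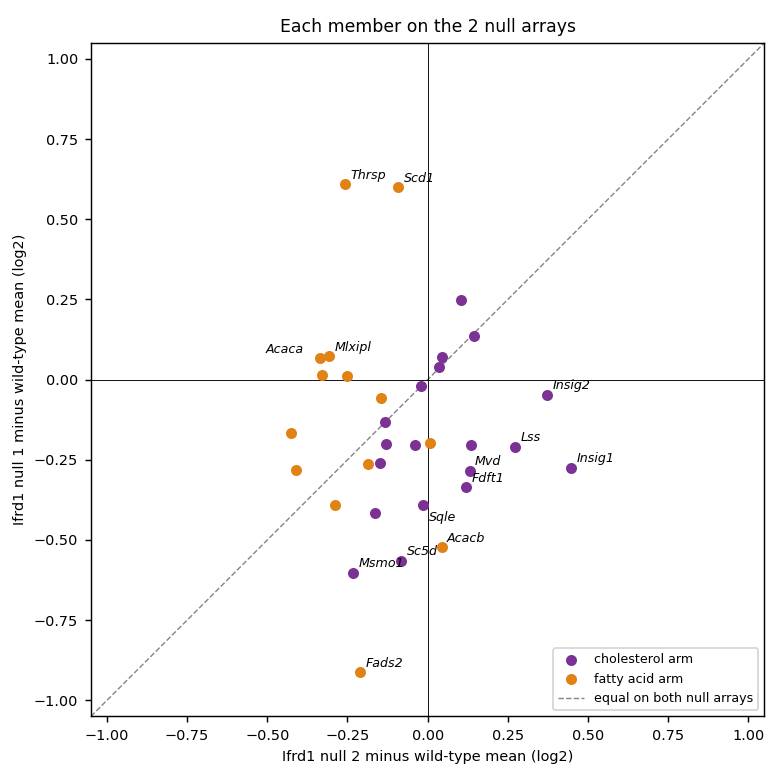
Each member on the null arrays, as the difference from the wild-type mean (log2), with Ifrd1 null 2 on the horizontal and Ifrd1 null 1 on the vertical axis. The dashed line marks equal values on both; 14 of 19 cholesterol members lie below it and 9 of 14 fatty acid members above it.

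Markers of other cells differed between the same null arrays. All 11 measured adipocyte markers were higher on Ifrd1 null 1 than on Ifrd1 null 2, by a median of 1.22, and their mean level was 5.79 and 6.24 in wild type and 6.57 and 5.55 in the null. Adipoq, the fat cell hormone adiponectin, was at 5.08 and 5.61 in wild type and at 5.87 and 4.38 in the null, and Cidec, a lipid droplet protein, at 5.98 and 6.43 against 6.90 and 5.08. Plin1, Plin4, Fabp4, Retn and Car3 were likewise highest on Ifrd1 null 1, while 6 of the 11 markers, Lep among them, were below the median gene on at least 1 array. Thrsp and Scd1 had the same pair of high arrays as this list, Ifrd1 null 1 and wild type 2, and the same pair of low ones.

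Acinar markers ran the opposite way. All 11 measured markers were lower on Ifrd1 null 1 than on Ifrd1 null 2, by a median of 0.56, and their mean level was 11.2 on both wild-type arrays, 10.9 in Ifrd1 null 1 and 11.5 in Ifrd1 null 2. Gp2, a granule membrane protein, was at 10.9 and 11.1 in wild type and at 10.5 and 11.9 in the null. Insig1, Mvd, Fdps, Fdft1 and Lss, and Acacb of the fatty acid arm, had this order too, with wild type between the null arrays. Macrophage and B and plasma cell lists were higher on Ifrd1 null 1 by medians of 0.65 and 1.25. The stellate cell and fibroblast list (0.43) and the T and NK cell list (0.26) were higher there too. The islet, cycling cell, endothelial and T and NK cell lists lay mostly, but not always wholly, on one side by genotype. Other lists were more evenly split: hepatocyte markers were lower in the null in 4 of 9 and intestinal markers in 7 of 12. Duct markers were lower in 4 of 6 (median -0.10, 2 at limma unadjusted p under 0.05). At a limma unadjusted p under 0.05, 3.63% of all genes were lower and 3.27% higher. Among genes above the median level these shares were 5.41% and 1.23%. Islet markers were lower in the null in 7 of 9 genes (median -0.32, 5 at unadjusted p under 0.05). The 2 remaining islet genes, Gcg (0.24) and Sst (0.27), went the other way, also without overlap between groups. Cycling cell markers were lower in 5 of 6 (median -0.28, 3 at that level). Endothelial markers were lower in 7 of 8 (median -0.19, 2 at that level), and T and NK cell markers higher in 8 of 8 (median 0.34, 2 at that level). Of these T and NK cell markers 6 were below the median gene on at least 1 array, among them Nkg7 and Lat, the 2 at that level. Some intestinal transcripts set wild type 1 apart: Lgals4, an intestinal lectin, was at 7.24 there and at 4.31, 4.24 and 3.97 on wild type 2, Ifrd1 null 1 and Ifrd1 null 2. Agr2 and Muc2 were likewise highest there, but Sis and Apoa4 were lowest there. All 12 measured intestinal markers were below the median gene on at least 1 array. Without wild type 1 the median difference was -0.067 in the cholesterol arm and -0.22 in the fatty acid arm. The part of these cell mixtures in the members' values was not tested.

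**Figure D4:**
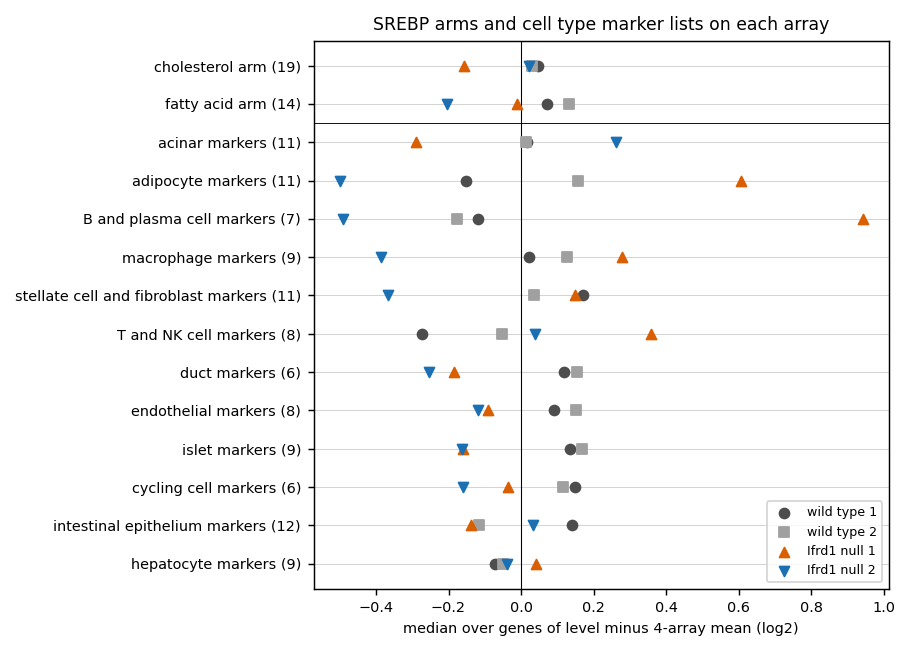
Median over the genes of each arm and each cell type marker list of the log2 level minus the gene's mean over the arrays, for each of the 4 arrays (number of genes in parentheses). The acinar list spreads over the null arrays in the same direction as the cholesterol arm. The adipocyte list spreads in the direction of the fatty acid arm over a wider range. Macrophage, B and plasma cell, stellate cell and fibroblast, and T and NK cell lists share that direction. On Ifrd1 null 1 the fatty acid arm lies below both wild-type arrays and the adipocyte list above both.

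Other genes of the pathway were read from 6 lists. Of 63 listed genes 52 were measured, 42 were lower in the null, and 0 passed the limma adjusted threshold. At unadjusted p under 0.05 there were 5 lower and 1 higher, where 3.63% and 3.27% of all genes and 5.41% and 1.23% of genes above the median level were. Mbtps2, the site-2 protease that frees SREBPs in the Golgi, was at 6.57 and 6.72 in wild type and at 6.24 and 6.34 in the null (-0.35 ± 0.12, SE, limma adjusted p = 0.721), and Mbtps1, the site-1 protease, differed by -0.22 ± 0.10. In this list of cleavage and degradation factors 6 of 8 were lower. Among the other sterol enzymes 3 of 4 were lower, with Ggps1, which makes geranylgeranyl diphosphate, at -0.17 ± 0.12.

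Genes that liver X receptors control or that move sterol had 7 of 10 lower in the null. Abcg1, a sterol exporter and liver X receptor target, was at 7.59 and 7.85 in wild type and at 7.38 and 7.17 in the null (-0.44 ± 0.15, SE, limma adjusted p = 0.721). Its groups did not overlap, as in 29.1% of genes above the median level. Abca1, another exporter and target of the receptors, overlapped between groups, at 8.84 and 8.91 in wild type and at 8.84 and 8.14 in the null (-0.38 ± 0.26). Nr1h3, which encodes liver X receptor alpha, differed by 0.03 ± 0.14.

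In fatty acid activation, elongation and triglyceride synthesis 14 of 16 genes were lower. Lpin1, a phosphatidate phosphatase and SREBP target, was at 6.79 and 6.75 in wild type and at 6.33 and 6.21 in the null, 1.42-fold lower (-0.50 ± 0.11, SE, limma adjusted p = 0.721). Dgat1, which completes triglycerides, was at 5.77 and 5.91 against 5.48 and 5.52 (-0.34 ± 0.11). Dgat2, the other enzyme of that step, was at 5.38 and 5.52 in wild type and at 6.11 and 5.09 in the null, an order shared with the adipocyte list. For NADPH supply, Pgd of the pentose phosphate pathway was at 8.13 and 8.24 against 7.90 and 7.76 (-0.36 ± 0.11), and 2 of 3 genes were lower.

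Fatty acid oxidation genes had 10 of 11 lower, with a median of -0.14. The exception, Pdk4, a kinase that blocks glucose oxidation, was at 5.11 and 5.05 in wild type and at 5.51 and 5.65 in the null, 1.41-fold higher (0.50 ± 0.11, SE, limma adjusted p = 0.721). Synthesis and oxidation genes were thus both mostly on the lower side, as were 67.3% of all genes above the median level.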

How the data were processed

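Per the labels' protocols, total RNA was extracted with Trizol, given a biotin label and measured on Affymetrix arrays. The authors deposited 1 value per array and transcript cluster, read here as log2 from its range (0.218 to 13.9, array medians 4.08 to 4.15). Log base, background correction, probe summary and normalization are not given in the sources used here. Of 41345 rows, 23521 had 1 gene symbol, 1814 several and 16010 none here; 22180 genes resulted. All were fitted with limma 3.58.1 (R 4.3.3) as Ifrd1 null minus wild type, all 4 arrays, no covariates, no filter, Benjamini-Hochberg over all genes. Errors are limma's moderated standard errors. In 20 simulated runs with 200 changed genes among 22180, the fit recovered 0% of changes of 0.5, 4% of 1 and 75.6% of 2 (log2). Members, arms and lists were chosen with earlier results of these data known. Named are all members, and of each pathway list the genes with unadjusted p under 0.05 and separate groups, else the smallest p; further genes were chosen after their values were seen, as were the orders over arrays that are counted. Same-numbered arrays did not deviate together (r = -0.04 across genes). Alternatives were other scalings, the mean of a gene's rows, a replicate block, trend and robust eBayes, bright genes only, enzymes only and each array left out. Leaving out genes with identical values was added after seeing the data.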

Additional observations from a re-analysis of the deposited data

How the results depend on the processing

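In every alternative run, 0 of 33 members passed the adjusted threshold (lowest limma adjusted p = 0.473). Precision is limited by the 4 arrays, and changes of the size seen here were mostly out of reach of the test. The arms' medians moved by less than the replicate spread under every scaling, row choice and fit run, and moved more only when a null array was left out. That spread was 0.090 for the cholesterol arm, 0.10 for the fatty acid arm and 0.19 for cholesterol minus fatty acid. For the cholesterol arm and the arm gap it exceeded the main values (-0.076 and 0.070), so even a move to 0 would count as less. The replicate block and trend and robust eBayes cannot move a median. With each array left out in turn, the cholesterol arm ranged from -0.21 (without Ifrd1 null 2) to 0.034 (without Ifrd1 null 1), and both moves exceeded that spread. The fatty acid arm ranged from -0.25 (without Ifrd1 null 1) to -0.11 (without Ifrd1 null 2). Cholesterol minus fatty acid ranged from -0.093 (without Ifrd1 null 2) to 0.29 (without Ifrd1 null 1). For the fatty acid arm and for cholesterol minus fatty acid, only the move without Ifrd1 null 1 exceeded the spread. The count of genes called was 1, and 5 under median centring, 4 with cyclic loess, 4 with the replicate block, 5 with trend and robust eBayes, 5 leaving out genes with identical values, 0 among genes above the median level and 0 with each array left out. Genes at unadjusted p under 0.05 were 884 among genes above the median level, where fewer genes were tested, against 1532, and 1301 to 2232 with an array left out. Members at that level were 2 with median centring, 2 with trend and robust eBayes and 2 among genes above the median level (Srebf1 and Msmo1), 0 with quantile normalization, 0 with cyclic loess and 0 with the replicate block, against 1, and 1 to 8 with an array left out (8 without Ifrd1 null 2, Fads2 and Msmo1 first). The replicate block left every difference as it was, and the numbers do not pair the arrays. Trend and robust eBayes, bright genes only and leaving out identical values also left the difference of each fitted gene unchanged. In these fits and the replicate block no sign could turn. The sign turned for Scap with the mean of its rows (0.048), for Fdps with quantile normalization (0.023) and cyclic loess (0.025), for Cyp51 with quantile normalization (0.0081), and with cyclic loess for Elovl5 (0.0076) and Fads1 (0.010). With each array left out in turn the sign also turned for 17 members, whose ranges were -0.0040 to 0.076 for Srebf2, -0.27 to 0.45 for Insig1, -0.047 to 0.37 for Insig2, -0.28 to 0.13 for Mvd, -0.21 to 0.13 for Fdps, -0.33 to 0.12 for Fdft1, -0.21 to 0.27 for Lss, -0.51 to 0.18 for Hsd17b7, -0.069 to 0.18 for Stard4, -0.31 to 0.073 for Mlxipl, -0.26 to 0.61 for Thrsp, -0.25 to 0.011 for Acly, -0.34 to 0.066 for Acaca, -0.52 to 0.044 for Acacb, -0.33 to 0.015 for Fasn, -0.091 to 0.60 for Scd1 and -0.20 to 0.0071 for Fads1. Of the other 13 members, 10 kept their direction in all 12 alternatives, and Mvk, Pmvk and Msmo1 in the 11 that did not leave them out for identical values. Those alternatives include the fits in which no sign could turn. The causes were not tested.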
